A study of Homo sapiens with 6 samples.

Results

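The protocadherins are a large family of cadherin-like cell surface proteins, and their transcripts were examined in EVs (extracellular vesicles) released by WT Jurkat T cells and by CD47-deficient (CD47-) JinB8 cells. The members were all array probe sets that the platform annotation lists with exactly 1 gene symbol where that symbol begins with PCDH. This rule gave 43 probe sets of 42 genes among 19460 probe sets with 1 symbol and 33297 probe sets in all. The members comprised 13 probe sets of 12 alpha cluster genes, 18 of the beta cluster, 1 of the gamma cluster and 11 of non-clustered genes. The family itself was chosen by a measured value, because PCDHGB4, its gamma cluster member, was among the few lower transcripts of the same comparison of CD47- with WT EVs. The differences between the EVs are therefore given as a description, and nothing is inferred from the position of PCDHGB4.

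The series holds 6 Affymetrix human gene arrays of EV RNA, 3 from the WT line JK (Jurkat, a human T cell leukemia line, CD47 WT) and 3 from JinB8 (a somatic mutant of Jurkat, CD47 mutant). Cells of both lines grew without serum for 24 to 48 h before EV collection, and 300 ng of total RNA was labeled for each array. Each genotype is a single cell line, so the loss of CD47 cannot be told apart from other differences between these lines. The labels name 2 EV isolation kits without saying which preparation had which, and they do not say whether the replicates were separate cultures, so a p value here measures the spread between preparations, which may be technical. The deposited values are log2 values from robust multi-array average (RMA), which makes all arrays alike in distribution, so a value is a relative level within the RNA of one EV preparation. Fewer vesicles carrying a transcript and less of it per vesicle cannot be told apart.

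In vertebrates, clustered protocadherins are encoded by 3 neighboring clusters named alpha, beta and gamma. In the alpha and gamma clusters each variable exon has its own promoter and is spliced to constant exons shared by that cluster, whereas beta cluster genes have no shared constant exons. Neurons are known to use different combinations of these promoters, and the proteins bind like proteins on neighboring cells, which serves self-recognition of neurites. Most of the promoters share a conserved element with the core CGCT and are bound by CTCF, which works with cohesin to loop them to distant enhancers. Non-clustered protocadherins lie alone in the genome, and their delta-1 and delta-2 subgroups differ in the number of cadherin repeats and in motifs of the cytoplasmic tail.

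The 100 bases before the transcript start are shown for PCDHGB4, for the genes on either side of it in the gamma cluster and for the other 4 members in which the CD47- arrays did not overlap the WT arrays. They were taken from RefSeq on the GRCh38.p14 build, are written 5′ to 3′ on the strand of the gene and end at the base before the start. Capitals mark each CGCT. The RefSeq promoters covered 34 of the 42 member genes, and where a gene had more than 1 start the first listed was used. The arrays do not measure promoter use, and the windows are shown for what the family shares in sequence. PCDHGB4 lies at chr5:141387598-141387697 (plus strand), PCDHGA7 at chr5:141382642-141382741 (plus), PCDHGA8 at chr5:141392533-141392632 (plus), PCDHA4 at chr5:140806968-140807067 (plus), PCDHB16 at chr5:141182287-141182386 (plus), PCDHB15 at chr5:141245295-141245394 (plus) and PCDH19 at chrX:100410274-100410373 (minus).
PCDHGB4: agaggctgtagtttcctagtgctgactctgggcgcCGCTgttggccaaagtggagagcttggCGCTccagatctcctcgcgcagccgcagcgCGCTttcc
PCDHGA7: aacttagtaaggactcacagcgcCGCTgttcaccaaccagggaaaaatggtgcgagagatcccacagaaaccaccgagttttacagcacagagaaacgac
PCDHGA8: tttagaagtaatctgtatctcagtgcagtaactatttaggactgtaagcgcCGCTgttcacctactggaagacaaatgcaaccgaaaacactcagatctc
PCDHA4: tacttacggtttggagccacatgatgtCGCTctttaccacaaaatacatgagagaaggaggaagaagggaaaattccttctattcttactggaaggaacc
PCDHB16: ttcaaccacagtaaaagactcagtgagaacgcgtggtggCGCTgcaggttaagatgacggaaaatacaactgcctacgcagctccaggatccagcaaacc
PCDHB15: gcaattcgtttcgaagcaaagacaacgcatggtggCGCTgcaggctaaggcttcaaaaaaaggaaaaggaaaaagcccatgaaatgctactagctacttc
PCDH19: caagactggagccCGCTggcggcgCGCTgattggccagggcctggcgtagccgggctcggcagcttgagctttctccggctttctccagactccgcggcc

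CGCT stood on the strand of the gene within these 100 bases in 12 of 13 alpha, 13 of 14 beta and 19 of 20 gamma cluster genes with a RefSeq promoter, or 93.6% of the 47 cluster genes. It did so in 3 of 11 non-clustered genes and in 28.1% of all 27305 genes of the table. On either strand, counting AGCG on the gene's strand as a match, the shares were the same 44 of 47 cluster genes, 6 of 11 non-clustered genes and 44.7% of all genes. The cluster genes without these letters in the window were PCDHA9, PCDHB8 and PCDHGB2. The count is of the letters alone, which 28.1% of all genes also have. A match therefore does not show that the conserved element is present, and a lack of one does not show that it is absent. The longest run that PCDHGB4 shared with both neighbors was gcgcCGCTgtt, of 11 bases, and it stood on the strand of the gene in the windows of 7 of the 27305 genes (0.0256%). All 7 were gamma cluster genes, namely PCDHGA1, PCDHGA7, PCDHGA8, PCDHGA9, PCDHGA10, PCDHGB4 and PCDHGB5. Because the run was taken from the windows of PCDHGB4, PCDHGA7 and PCDHGA8, these genes were certain to be among the 7. The window of PCDHGB4 holds 3 matches of the core, the first of them in this run. Of these 7 genes, PCDHGB4 alone was measured by a probe set with 1 symbol, so the array gives no value by which to compare them.

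**Figure D1:**
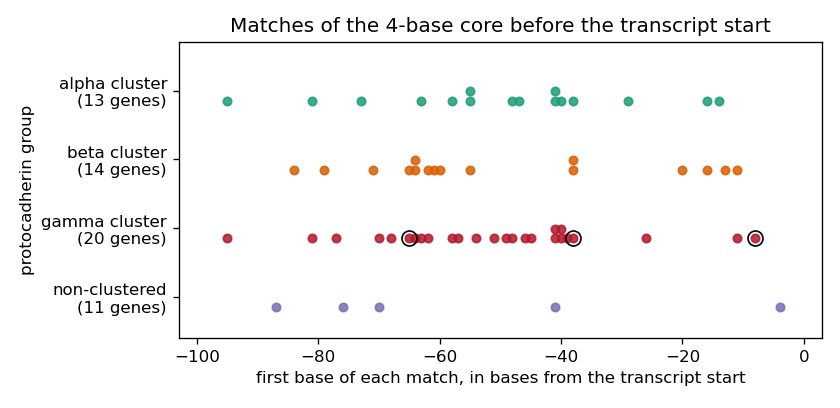
Position of each CGCT on the strand of the gene in the 100 bases before the RefSeq start (horizontal axis, first base of the match in bases from the start) for the 4 protocadherin groups (rows, with the number of genes that have a promoter in the table). Each point is 1 match, those of PCDHGB4 are circled, and the 58 matches of the 3 clusters lie from -95 to -8 with a median of -52.5.

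CD47, the gene lost in JinB8 cells, had log2 values of 4.72, 4.69 and 4.72 in WT EVs and 4.58, 4.67 and 4.94 in CD47- EVs, so its probe set does not check the labels. The medians of the 6 arrays lay between 5.08 and 5.14, and pairs of arrays correlated with r from 0.982 to 0.989 across probe sets. No detection calls came with the values. As a rough gauge of background, 357 probe sets of olfactory receptors, genes of sensory neurons of the nose, had a median of 5.45 and a 95th percentile of 6.78. Of 14 T cell marker genes 10 lay above that median and 3 above that percentile, and of 14 probe sets of 12 neuron markers 4 and 0 did. Across all probe sets, the threshold of adjusted p under 0.05 (limma) was passed by 138 that were higher in CD47- EVs and 3 that were lower. Together these are 0.725% of 19460, and the lower ones are 0.0154%. The total of 141 dropped to 65 when WT replicate 3 was left out, to 72 when CD47- replicate 3 was and to 88 when CD47- replicate 2 was. The count of lower probe sets, 3 in the full comparison, was 7 without CD47- replicate 1, 2 without CD47- replicate 2 and 1 without either WT replicate 3 or CD47- replicate 3.

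PCDHGB4, a gamma cluster gene of the B subfamily, had log2 values of 6.59, 6.69 and 6.69 in the 3 WT arrays and 6.01, 6.14 and 6.06 in the 3 CD47- arrays. Every CD47- array thus lay below every WT array, with a gap of 0.46 between the nearest arrays. WT EVs had a mean of 6.66 ± 0.06 (SD, n = 3), and CD47- EVs had one of 6.07 ± 0.06 (SD, n = 3). The difference was -0.59 on the log2 scale (standard error 0.08), so that the level was 1.504-fold higher in WT EVs. It was the fourth lowest difference of the 19460 probe sets. The SD within groups was 0.06, against a median of 0.12 over all 43 members and 0.10 over all probe sets. Of the olfactory receptor probe sets described above, 83.5% had a lower mean than PCDHGB4, though binding strength varies from probe to probe.

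The summed unlogged values of the 14 T cell markers ran from 959 to 1049 in WT EVs and from 1124 to 1148 in CD47- EVs, which do not overlap. Sums of the cytoplasmic partners of protocadherins, described below, did not overlap either (410 to 435 in WT EVs, 438 to 448 in CD47- EVs). Those of the other gene lists overlapped. Of all single probe sets 12.9% did not overlap, and no such share was computed for sums of lists. The median difference of the 14 markers was 0.07, and 4 had an unadjusted p under 0.05, beside 8.16% of all probe sets. LEF1, a transcription factor of T cell development, was the only marker of the list that passed (log2 difference 0.61, adjusted p = 0.00182 from limma). The summed values of the neuron markers ran from 528 to 554 in WT EVs and from 552 to 592 in CD47- EVs, which overlap. Whether the makeup of the preparations had a part in the difference of PCDHGB4 was not tested.

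The probe set of PCDHGB4 is listed with a single transcript, whereas RefSeq gives this gene 2 curated transcripts. Transcripts of the gamma cluster share constant exons, as those of the alpha cluster do, so probes for one gene may bind transcripts of another. Whether the PCDHGB4 probes did so was not tested. The gamma cluster has 24 genes and pseudogenes in RefSeq, and PCDHGB4 was the only one with a probe set of 1 symbol. Its neighbors PCDHGA7 and PCDHGA8, the other gamma A and gamma B genes and the C genes PCDHGC3, PCDHGC4 and PCDHGC5 had no value here. Among the probe sets listed with several symbols, none names a gamma cluster gene. Whether the rest of the gamma cluster differed between the EVs was therefore not tested, and a value for PCDHGB4 is not a value for the cluster.

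**Figure D2:**
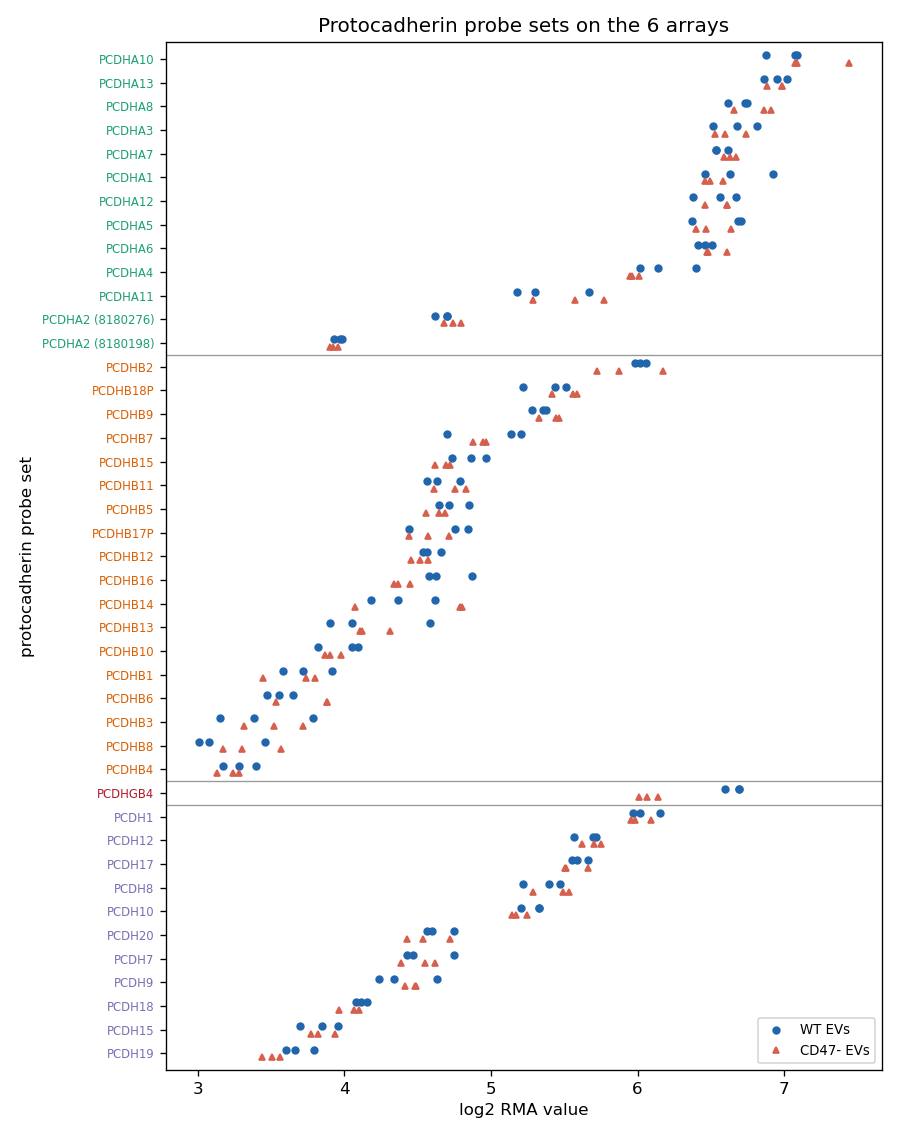
log2 RMA value (horizontal axis) of each of the 43 protocadherin probe sets (rows) on each of the 6 arrays, with WT EVs as blue circles and CD47- EVs as red triangles. Names are colored by alpha cluster (green), beta cluster (orange), gamma cluster (red) and non-clustered genes (purple), and PCDHGB4 is the row in which the symbols of the groups stand widely apart. Levels of different probe sets are not comparable with each other.

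Of the 43 members, 1 passed as lower (PCDHGB4) and none passed as higher at an adjusted p under 0.05 over all probe sets, beside the 0.725% of all probe sets that passed. The other 42 had adjusted p from 0.235 to 1.000 (limma). Of the 43, 5 had an unadjusted p under 0.05, beside 8.16% of all probe sets. In 5 members the 3 CD47- arrays all lay below the 3 WT arrays and in 0 members all above. Across all probe sets, 12.9% did not overlap, made up of 5.51% below and 7.39% above. Because the family was proposed from this comparison, nothing is read from these counts. The 4 members other than PCDHGB4 whose groups did not overlap were PCDHB16, PCDHB15, PCDHA4 and PCDH19.
The median difference of the 43 members was -0.03, with 24 below 0 and 19 above, beside a median of 0.0036 over all probe sets, of which 48.5% were below 0. The olfactory receptor probe sets had a median difference of -0.05, and 69.5% of them were below 0. After each array was centered on the olfactory receptor genes, 18 members were below 0 and 25 above, so the balance of signs turns with the scaling. That centering raised the median of all probe sets to 0.07.

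**Figure D3:**
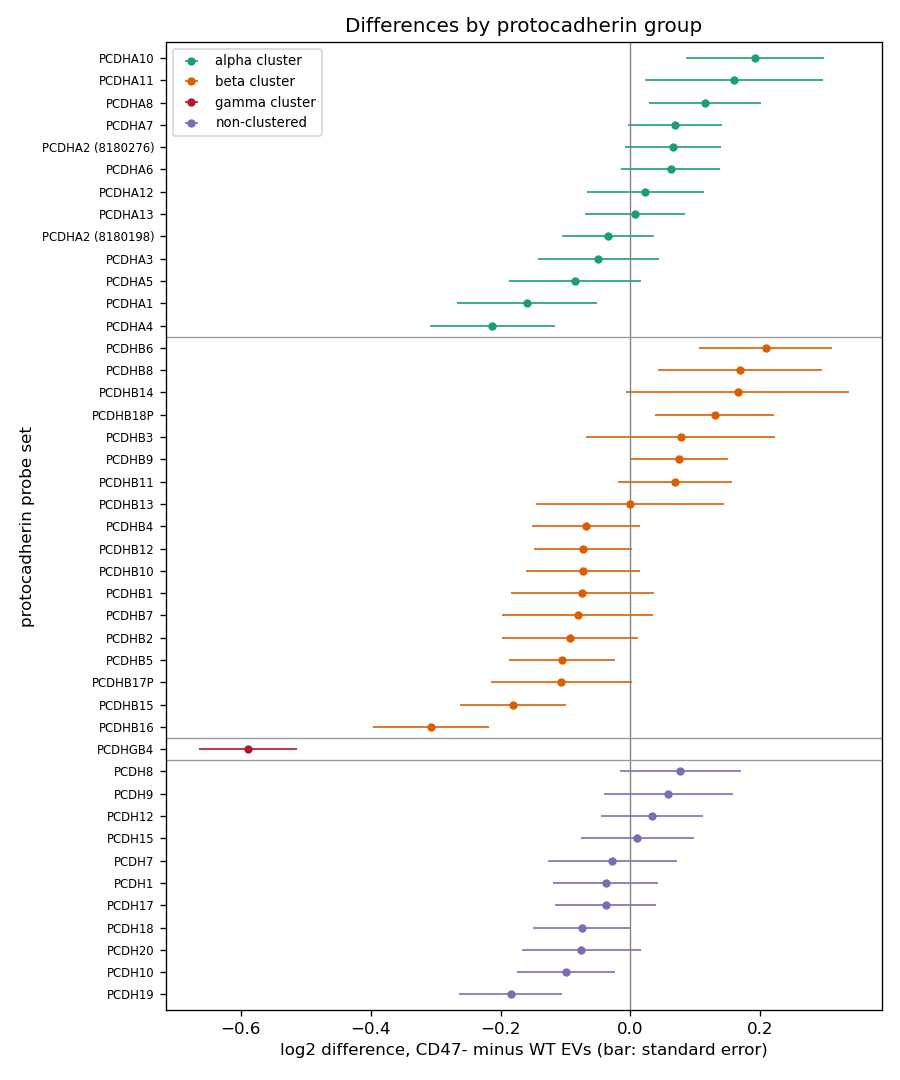
log2 difference between CD47- and WT EVs (horizontal axis, CD47- minus WT) for each protocadherin probe set (rows), with bars for the standard error from limma and colors for the 4 groups. PCDHGB4 lies at -0.59, and all other members lie between -0.31 and 0.21.

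The alpha cluster genes encode surface proteins whose variable ectodomains are joined to a shared cytoplasmic tail. None of their 13 probe sets passed over all probe sets with limma, beside 0.725% of all probe sets. An unadjusted p under 0.05 was found for 1, beside 8.16% of all probe sets. The differences ran from -0.21 to 0.19, with 8 above 0 and 5 below. The median of 0.02 was below 0 after a further quantile normalization (-0.0071) and without CD47- replicate 2 (-0.0026).
PCDHA4 had the lowest difference of the cluster. Its log2 values were 6.14, 6.40 and 6.02 in WT EVs and 5.96, 5.95 and 6.01 in CD47- EVs. The groups were apart by only 0.0037, and WT replicate 2 stood highest. The difference was -0.21 (standard error 0.10, adjusted p = 0.601 from limma).
PCDHA10 had the highest difference and also the highest mean of the cluster. Its values were 7.07, 7.08 and 6.88 in WT EVs and 7.07, 7.44 and 7.09 in CD47- EVs. CD47- replicate 2 alone stood above the WT arrays by a wide margin, and the groups overlapped. The difference was 0.19 (standard error 0.11, adjusted p = 0.732 from limma).
PCDHA2 was the only member gene with more than 1 probe set. Its differences were -0.03 (standard error 0.07) and 0.07 (standard error 0.07), with means over the 6 arrays of 3.94 and 4.70, and the groups overlapped in both. Each of the 13 probe sets is listed with a single accession, as is that of PCDHGB4, whereas no beta or non-clustered member is. Of all 1885 such probe sets, 13 passed as higher and 2, PCDHGB4 among them, as lower. Of all 19460 probe sets 138 passed as higher and 3 as lower. For the alpha cluster 11 of 13 means lay above the olfactory receptor median and 2, those of PCDHA10 and PCDHA13, above the 95th percentile. PCDHA9, PCDHAC1 and PCDHAC2 were without a probe set of 1 symbol.

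The beta cluster genes are similar in sequence to each other, so probes for one can bind transcripts of another. None of their 18 probe sets passed over all probe sets with limma, and 2 had an unadjusted p under 0.05. Of all probe sets 0.725% and 8.16% did. The differences ran from -0.31 to 0.21, with 11 below 0 and 7 above. The median of -0.07 was above 0 without CD47- replicate 3 (0.015).
PCDHB16 had the lowest difference of the cluster and of all members after PCDHGB4. Its log2 values were 4.58, 4.63 and 4.87 in WT EVs and 4.45, 4.34 and 4.37 in CD47- EVs. The CD47- arrays were all lower, by at least 0.13, and WT replicate 3 stood highest. The difference was -0.31 (standard error 0.09) and did not pass (adjusted p = 0.235 from limma).
PCDHB15, the last gene of the cluster, had values of 4.96, 4.87 and 4.74 in WT EVs and 4.62, 4.69 and 4.72 in CD47- EVs. The CD47- arrays were again lower, but the nearest arrays differed by 0.02. The difference was -0.18 (standard error 0.08, adjusted p = 0.601 from limma).
PCDHB6 had the highest difference, with values of 3.65, 3.47 and 3.56 in WT EVs and 3.88, 3.53 and 3.88 in CD47- EVs. CD47- replicates 1 and 3 lay above the WT arrays and CD47- replicate 2 among them. The difference was 0.21 (standard error 0.10, adjusted p = 0.656 from limma).
PCDHB2, with the highest mean of the cluster, had values of 6.02, 5.98 and 6.05 in WT EVs and 6.17, 5.87 and 5.72 in CD47- EVs. The WT arrays lay close together and within the spread of the CD47- arrays. The pseudogenes PCDHB17P and PCDHB18P had differences of -0.11 and 0.13 and overlapped between the groups. The replicates disagreed most for PCDHB14, with an SD within groups of 0.33 and values from 4.07 to 4.80 in CD47- EVs. Only 2 beta members, PCDHB2 and PCDHB18P, had a mean above the olfactory receptor median, so for most of the cluster this gauge does not place the signal above background.

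The non-clustered genes gave 11 probe sets. None passed over all probe sets with limma, beside 0.725% of all probe sets, and 1 had an unadjusted p under 0.05, beside 8.16%. Of the differences 7 were below 0 and 4 above, and the median of -0.04 was above 0 (0.024) once arrays were centered on the olfactory receptors. Only PCDH1, PCDH12 and PCDH17 had means above the olfactory receptor median.
PCDH19, an X-linked delta-2 gene mutated in a form of epilepsy, had the lowest difference of this group. Its log2 values were 3.67, 3.60 and 3.79 in WT EVs and 3.56, 3.51 and 3.44 in CD47- EVs. The CD47- arrays were all lower, by 0.04 at the nearest, at a mean that lay above only 5.88% of the olfactory receptor probe sets. The difference was -0.18 (standard error 0.08, adjusted p = 0.571 from limma).
Of the other delta-2 genes, PCDH8, which is induced by activity at synapses, had values of 5.47, 5.40 and 5.22 in WT EVs and 5.49, 5.29 and 5.53 in CD47- EVs. The groups overlapped, and the difference was 0.08 (standard error 0.09). PCDH17, the brightest of the subgroup, had values of 5.66, 5.59 and 5.55 in WT EVs and 5.51, 5.51 and 5.66 in CD47- EVs, which overlap, and a difference of -0.04. PCDH10, a gene linked to autism, had a difference of -0.10, and PCDH18 one of -0.07.
Of the delta-1 genes, PCDH1, known from airway epithelium, had values of 6.15, 6.01 and 5.97 in WT EVs and 6.09, 5.95 and 5.98 in CD47- EVs. The groups overlapped almost wholly, and the difference was -0.04 (standard error 0.08). PCDH9 and PCDH7 had differences of 0.06 and -0.03.
Among the remaining genes, PCDH12, an endothelial protocadherin, had values of 5.69, 5.56 and 5.72 in WT EVs and 5.75, 5.62 and 5.70 in CD47- EVs. The groups overlapped, with a difference of 0.03 (standard error 0.08). PCDH15, part of the tip link of hair cells, and PCDH20 had differences of 0.01 and -0.08.

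**Figure D4:**
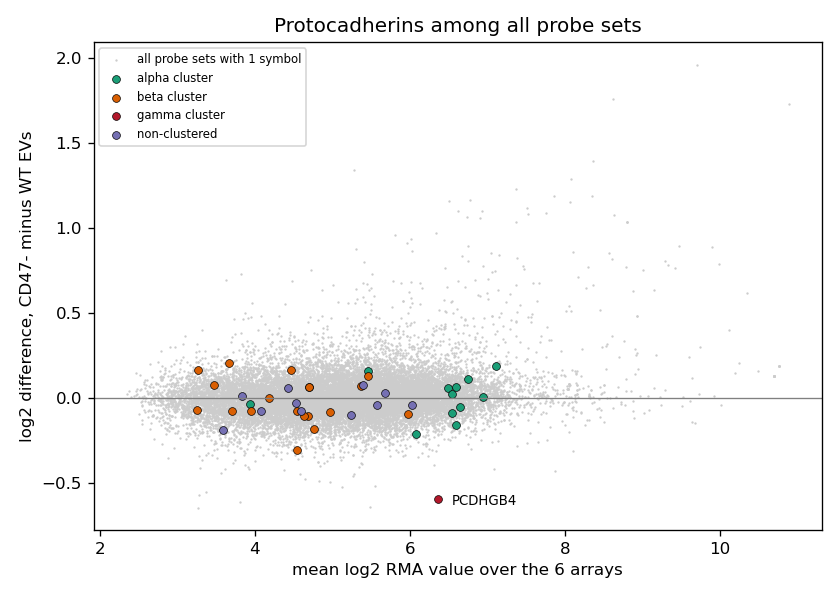
log2 difference between CD47- and WT EVs (vertical axis, CD47- minus WT) against the mean log2 value of all arrays (horizontal axis), with 1 grey point for each of 19460 probe sets and colored points for the 43 protocadherin probe sets. PCDHGB4 (difference -0.59, mean 6.36) lies below the other members. The next lowest member, PCDHB16 (difference -0.31), has rank 91 from the lowest difference of the 19460.

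Genes that act on or with protocadherins showed no member that passed. Of 15 probe sets of 14 genes for CTCF, cohesin and the silencing of clustered promoters none passed, beside 0.725% of all probe sets, and 3 had an unadjusted p under 0.05 (limma), beside 8.16%. Their median difference was 0.04. The cohesin subunits RAD21 and SMC1A had the smallest p of these, with log2 differences of 0.38 (adjusted p = 0.299) and 0.21 (adjusted p = 0.363 from limma). In both genes the CD47- arrays all lay above the WT arrays, as they did in 7.39% of all probe sets.
Of 6 genes for ADAM10 and gamma-secretase, which cleave clustered protocadherins, none passed and 2 had an unadjusted p under 0.05 (limma), beside 8.16% of all probe sets, with a median of -0.09. The gamma-secretase subunits APH1B and PSENEN had differences of -0.27 and 0.28, in opposite directions. Of 12 probe sets of cytoplasmic partners, such as focal adhesion kinases and the WAVE complex, none passed and 3 had an unadjusted p under 0.05 (limma), beside the same 8.16%, with a median of 0.04. The WAVE subunit BRK1 had 2 probe sets that pointed in opposite directions (-0.21 and 0.21).
Of 45 other cadherin genes none passed and 1 had an unadjusted p under 0.05 (limma), again beside 8.16%, with a median of -0.01, and the smallest p belonged to CDH7 (difference 0.23) and CDH24 (-0.16).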

How the data were processed

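RNA of EVs from WT Jurkat (n = 3) and CD47- JinB8 cells (n = 3) was hybridized to Affymetrix HuGene-1_0-st-v1 arrays. Affymetrix Expression Console and its RMA method (versions and build not given in the sources used here) gave the log2 values that the authors deposited. The method corrects background, normalizes by quantiles and summarizes probe sets, which narrows differences of dim probe sets. Groups and replicate numbers came from the sample titles.

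Gene names came from the platform annotation, with symbols updated by gene ID for 19429 of 19460. CD47- was compared with WT by limma 3.58.1 in R 4.3.3 (lmFit, eBayes), with Benjamini-Hochberg adjustment over the 19460 probe sets, no filter and each probe set by itself. The fit was tested on simulated data. The number of arrays limits the precision. The members and gene lists were chosen with earlier results of these data known.

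Named were PCDHGB4 and its neighbors, in each subgroup the probe sets with the highest and lowest difference and the highest mean, genes with several probe sets, members whose groups did not overlap (added after the values were seen) and, of each other list, members that passed or else the 2 with the smallest p. Other members are named with their difference alone. The marker lists of B cells, myeloid, endothelial, epithelial and fibroblast cells are given in the closing section. The fit was repeated with array weights, with a trended robust variance, after a second quantile normalization, with arrays centered on olfactory receptors, with replicate numbers as blocks, without dim probe sets and with 1 probe set per gene, all probe sets, other thresholds and each array left out. Probe sets with several symbols (1754) or none (12083) stood outside the main fit. The window of 100 bases and the core CGCT were chosen with the sequences in view.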

Additional observations from a re-analysis of the deposited data

How the results depend on the processing

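PCDHGB4 was the only member that passed at each setting, 14 alternatives and adjusted p under 0.01 or under 0.10 included, with differences from -0.62 to -0.53. No other member passed in any of the 14 (lowest adjusted p = 0.209, limma). These settings reuse the arrays from which PCDHGB4 was chosen, so nothing is inferred from its passing again. Over all probe sets, 141 passed; 262 did after centering on the olfactory receptor genes, 69 at an adjusted p under 0.01, 221 at one under 0.10 and from 65 to 119 without 1 array. With the replicate number as a block 111 passed, and the block changed no call among the members. Deviations of same-numbered arrays from their group means correlated at 0.022, -0.017 and -0.044. With 3 arrays per group this cannot tell whether same-numbered arrays shared a culture or a batch. Median differences after centering on the olfactory receptor genes were 0.085 (alpha), -0.0090 (beta), -0.53 (gamma, PCDHGB4 alone) and 0.024 (non-clustered). The beta median was 0.019 among the probe sets above the olfactory receptor median, of which 2 were beta. Without 1 array the medians ran from -0.0026 to 0.079 (alpha), -0.067 to 0.015 (beta), -0.62 to -0.56 (gamma) and -0.063 to -0.012 (non-clustered). Of 575 recomputed member differences 569 moved by less than 1 SD within groups. Many of the 575 could not move, because the block, the trended variance and the changes of tested probe sets leave a difference unchanged. The 6 that moved further all came from centering on the olfactory receptor genes, and PCDHGB4 (-0.53) was among them. Causes of these shifts were not tested. Beta and non-clustered members are mostly dim, which limits what a difference near 0 can show. By the stricter gauge, the 95th percentile of the olfactory receptors, only 2 members lay above background. Both were alpha members, and PCDHGB4 was not above it.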

Other observations

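Of 12 measured genes on chromosome 5 around and between the clusters by RefSeq order (5 before the alpha cluster, 5 after the gamma cluster and 2 between clusters), none passed and 2 had an unadjusted p under 0.05 (limma), beside 8.16% of all probe sets. Their differences ran from -0.23 for ZMAT2 to 0.28 for DND1, with a median of 0.03. In 2 of them, DIAPH1 and RELL2, which follow the gamma cluster, the CD47- arrays all lay above the WT arrays, beside 7.39% of all probe sets, and in 0 all below, beside 5.51%. DIAPH1, a formin that nucleates actin filaments, had a difference of 0.24 (standard error 0.09, adjusted p = 0.469 from limma).

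A probe set listed with 15 alpha cluster symbols had log2 values of 4.70, 4.83 and 4.81 in WT EVs and 4.77, 4.78 and 4.88 in CD47- EVs. The groups overlapped, with a difference of 0.03 (standard error 0.07). A pair of probe sets listed with both PCDH11X and PCDH11Y had differences of -0.03 and -0.04.

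On single arrays, WT replicate 1 held the highest of the 6 values for 14 of the 43 members, WT replicate 3 for 11 and WT replicate 2 for 3. The same count was not made over all probe sets, so it is not read as a trait of the family. The lowest value was spread more evenly, from 6 to 9 members per array.

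Of the marker lists for other cells, none of the 5 B cell, 7 myeloid, 7 endothelial, 7 epithelial and 5 fibroblast probe sets passed (limma), and those with an unadjusted p under 0.05 numbered 0, 0, 1, 0 and 1, beside 8.16% of all probe sets. The median differences were 0.0024, 5.6e-04, -0.03, 0.02 and -0.04. The members with the smallest p were CD79A (-0.16) and MS4A1 (0.13), MPO (0.07) and LYZ (-0.05), TEK (-0.20) and CLDN5 (0.10), KRT8 (0.14) and KRT18 (-0.25), and DCN (0.19) and COL3A1 (-0.08). Among neuron markers they were MAP2 (-0.22) and RBFOX3 (0.25), which did not pass, and 1 of that list had an unadjusted p under 0.05.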
